A study of Mus musculus with 2 samples.

Results

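The 38 genes of glycolysis and the hypoxia response were followed in single cells of the aorta-gonads-mesonephros (AGM) region, where the first hematopoietic stem cells of the mouse arise. They were chosen as a gene list, all 38 were found among the 31053 genes of the files, and the rule set no threshold on a measured value. The list held 3 alpha subunits and the beta subunit of the hypoxia-inducible factors (HIFs), 4 genes of HIF degradation, 4 transporters of glucose and lactate, 16 glycolytic enzymes, and switch enzymes and targets of HIF. UMIs (unique molecular identifiers, each standing for 1 captured transcript) were summed over barcodes with 2000 or more UMIs and under 10% mitochondrial UMIs, across cell classes and between libraries.

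Glycolysis turns glucose into pyruvate, and lactate dehydrogenase then converts pyruvate to lactate. When oxygen is low, HIF alpha subunits escape hydroxylation by the prolyl hydroxylases Egln1, Egln2 and Egln3, are no longer degraded through Vhl, and pair with Arnt to switch on glucose transporters, glycolytic enzymes and genes such as Bnip3, P4ha1 and Adm. In the embryo, oxygen supply changes as vessels and circulating blood form, and macrophages, muscle and endothelium are known for strong glycolysis.

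Whole AGMs of embryonic day 11 were dissociated with collagenase and measured with the 10x Chromium 3′ chemistry, with 1 library of PDGFRB +/+ (WT) and 1 of PDGFRB -/- (KO) embryos, each loaded to recover 7000 cells. The mice lacking the receptor throughout the body are kept as heterozygotes on a C57BL/6J background. The number of embryos behind each library was not given in the sources used here. With 1 library per genotype a difference between WT and KO has no replicate check, no test was possible, and genotype cannot be told apart from embryo, sex, dissection or library. The 95% intervals below cover counting error only. A change past 1.5-fold means a ratio of CPM (the UMIs of a gene scaled to the same total of UMIs in each group) of 1.5 or more in either direction for a gene with at least 20 UMIs in the 2 groups together.

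The libraries held 179743201 (WT) and 174597654 (KO) UMIs, and 8253 and 8165 barcodes were used, more than the 7000 cells loaded for. Their medians were 13321 and 12391 UMIs. Pdgfrb, the targeted gene, measured 43.14 CPM in the WT library and 7.095 in the other, with a UMI in 33.79% and 9.81% of barcodes. Xist measured 792.8 CPM in the WT library against 0.4148 in the KO library, and Y-linked genes 0.02664 against 163.4 CPM, so the libraries differed in sex. In free RNA (barcodes with at most 100 UMIs) the KO library held 105.2 CPM of Xist and the WT library 471.8 CPM. Y-linked genes measured 31.81 CPM in the free RNA of WT and 120 in that of KO. Each library's free RNA thus held sex-linked RNA that its used barcodes nearly lacked, and the source was not tested. The profile taken off below need not be RNA of that library alone. In addition, 20 barcodes passed the filters in both libraries. With the free RNA of each library, in the amount set by globin UMIs, taken off, the log2 ratio of KO over WT was -1.05 for Eno1 in mesenchyme and -2.46 for P4ha2 in endothelium. Without the 20 shared barcodes these were -1.05 and -2.41, against -1.05 and -2.43 with every barcode. Other choices moved the endothelial P4ha2 ratio far more, to -0.08 without barcodes with a Pdgfrb UMI in both libraries, as described below. Free RNA could not be taken off the erythroid class in this way.

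A barcode was put in a lineage class when at least 3 of its 10 marker genes had UMIs and no other lineage met that mark, and the remaining barcodes were split among mesenchymal classes by the same mark. This gave 6527 WT (79.09%) and 6612 KO (80.98%) barcodes, in erythroid, macrophage, endothelial, Schwann precursor, sympathetic neuron, skeletal muscle and epithelial classes and in 4 mesenchymal classes (sclerotome, smooth muscle, coelomic and other mesenchyme). Barcodes with markers of several lineages, 214 in WT and 182 in KO, were left out as possible doublets, and no doublet caller was run. In 10 of the 11 classes at least 1 of the markers was among the 10 genes with the highest ratio over other barcodes. The same markers set the classes, so this follows in part from the gating and is no separate check of identity. The KO macrophage class was also led by the granulocyte genes S100a8, S100a9 and Stfa1, which the WT class was not. The erythroid class took 11.4% of gated WT and 3.403% of gated KO barcodes, sclerotome 29.4% and 40.21%. Other mesenchyme was led by none of its own markers and is named by its rule. The epithelial class (20 and 37 barcodes), under the minimum of 50, was not compared between libraries.

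The promoters of 3 members that passed 1.5-fold between the libraries in mesenchyme, Eno1, P4ha2 and Egln3, and of Ldha, the lactate dehydrogenase A gene and a textbook HIF target, are printed below to show their HIF-type motifs. They are the 250 bases before a RefSeq start (GRCm38.p6), 5′ to 3′ on the gene's strand, lower case, with capitals at ACGTG or GCGTG on either strand. The matches may overlap.
Eno1 (chr4:150236458-150236707, + strand): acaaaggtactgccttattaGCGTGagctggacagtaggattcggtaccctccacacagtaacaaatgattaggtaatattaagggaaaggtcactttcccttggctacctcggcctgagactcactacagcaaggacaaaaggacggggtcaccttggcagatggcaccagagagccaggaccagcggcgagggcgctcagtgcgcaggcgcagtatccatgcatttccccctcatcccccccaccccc
P4ha2 (chr11:54100674-54100923, + strand): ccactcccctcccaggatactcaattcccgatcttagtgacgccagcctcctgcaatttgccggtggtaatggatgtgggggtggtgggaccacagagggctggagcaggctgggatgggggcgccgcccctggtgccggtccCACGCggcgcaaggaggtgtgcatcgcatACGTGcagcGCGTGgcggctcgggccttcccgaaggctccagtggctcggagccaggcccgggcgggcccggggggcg
Egln3 (chr12:54203875-54204124, - strand): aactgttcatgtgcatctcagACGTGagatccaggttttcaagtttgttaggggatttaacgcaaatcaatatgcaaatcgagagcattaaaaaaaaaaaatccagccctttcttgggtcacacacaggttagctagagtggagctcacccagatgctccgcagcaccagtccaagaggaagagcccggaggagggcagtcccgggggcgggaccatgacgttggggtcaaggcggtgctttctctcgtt
Ldha (chr7:46845554-46845803, + strand): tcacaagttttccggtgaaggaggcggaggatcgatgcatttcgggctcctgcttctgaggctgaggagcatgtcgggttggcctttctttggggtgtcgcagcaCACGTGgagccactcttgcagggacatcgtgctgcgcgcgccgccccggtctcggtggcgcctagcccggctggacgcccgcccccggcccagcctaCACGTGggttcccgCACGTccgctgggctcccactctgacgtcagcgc
The P4ha2 window held 3 matches, the Ldha window 5 and the Eno1 and Egln3 windows 1 each, and none overlapped a GENCODE exon. A promoter was found for 35 of the 38 members, and some had several starts. Match counts depend on the start. Another Ldha start without exon overlap held 1 match, and the other Eno1 starts, whose windows overlapped exons, held 2 each. Either motif was in at least 1 promoter of 32 of these 35 genes (91.4%) and of 11226 of all 27025 genes (41.5%). ACGTG alone was in 60% of members against 18.5% of all genes, and GCGTG in 68.6% against 30.9%. A match is a description of letters, with no evidence of binding.

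In the WT library, the 16 glycolytic enzymes together made up 4301 to 6751 CPM in every class but the erythroid, where they were at 1122 CPM. Macrophages (6733 CPM, 6656 to 6810) and skeletal muscle (6751 CPM, 6682 to 6821) lay highest, and their intervals overlapped. The 20 epithelial barcodes (6066 CPM, 5889 to 6248) and the coelomic barcodes (5976 CPM, 5926 to 6027) followed, with overlapping intervals, then other mesenchyme at 5453, sclerotome at 5364 and sympathetic neurons at 5331, whose interval (5226 to 5437) overlapped both. Schwann precursors (4822 CPM) and endothelium (4772 CPM) were lower and overlapped, and smooth muscle was at 4301 CPM. In KO, the 37 epithelial barcodes were highest at 7340 CPM (7207 to 7475), of which 5 held 41.98% of the enzyme UMIs. Skeletal muscle was at 6373, macrophages at 6340, endothelium at 4522, smooth muscle at 4412 and erythroid barcodes at 1398 CPM.

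Globin transcripts took 55.3% of the erythroid UMIs in WT and 60.7% in KO, so every other gene is diluted there. The enzymes were lower in WT erythroid than in other gated barcodes by 2.26 on the log2 scale (1122 against 5357 CPM), and without globin and mitochondrial genes in the totals the log2 ratio was -1.13 (2606 against 5688 CPM). The median over all 16116 genes was -2.22, and after centring on that median the enzyme ratio was -0.03. Of the 38 members, 35 were past 1.5-fold lower and 0 higher in WT erythroid barcodes, where 91.1% of all genes were lower and 3.61% higher. Bnip3l, a mitophagy receptor used when red cells clear their mitochondria, was the member that went furthest the other way, at 221.5 CPM in WT and 237.3 in KO erythroid barcodes against 88.2 to 171.3 CPM in the other WT classes. Pfkfb3 (0.5758 against 5.98 CPM), Hk2 (3.239 against 31.09) and P4ha2 (4.534 against 42.27) were furthest below the other barcodes in WT.

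**Figure D1:**
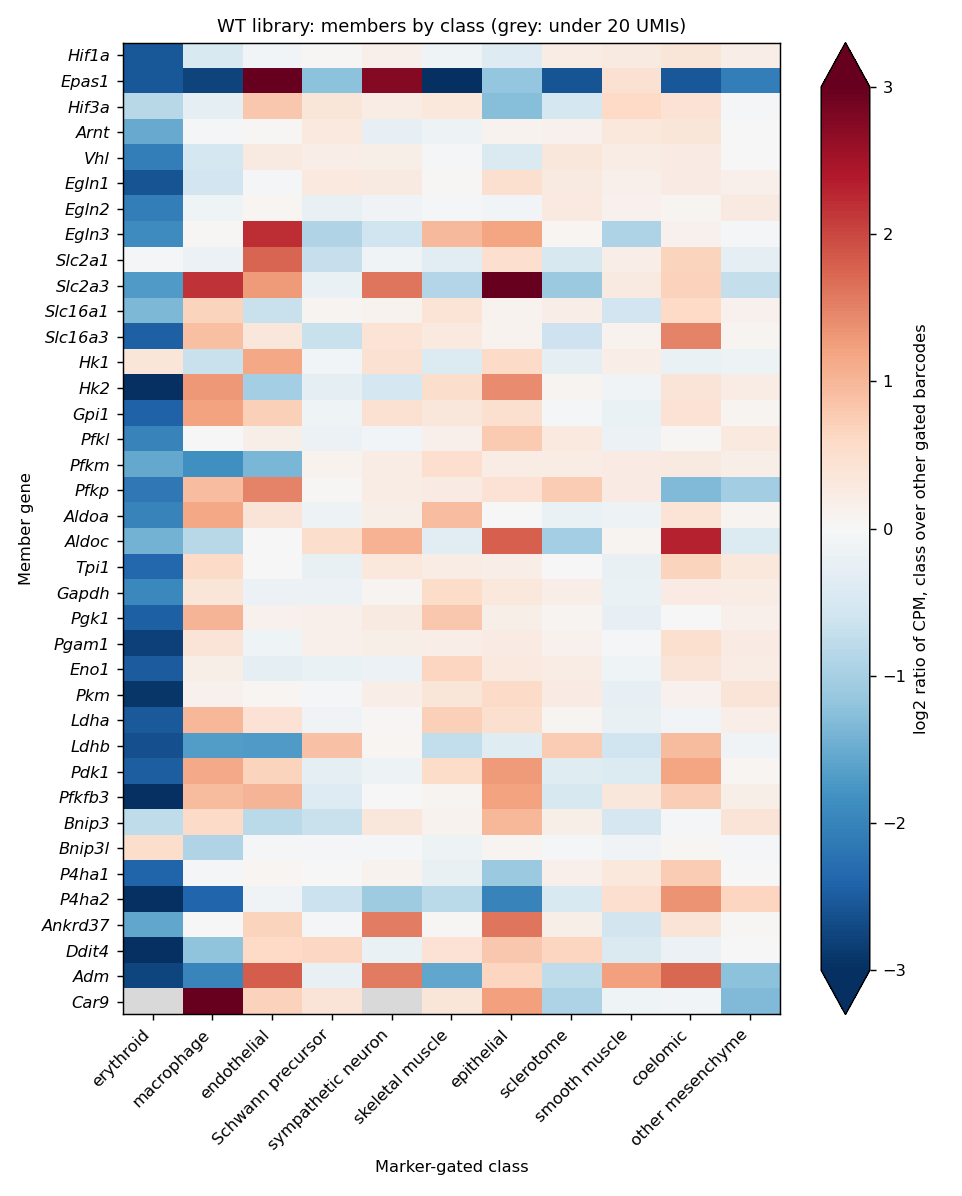
Log2 ratio of CPM of each member gene (rows) in each marker-gated class (columns) over all other gated barcodes of the WT library, blue for lower and red for higher, with grey under 20 UMIs. The erythroid column is blue for nearly every member, and Epas1 is red in the endothelial and sympathetic neuron columns.

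Macrophages had 6 of the 16 enzymes past 1.5-fold higher and 4 lower than other gated barcodes. In WT, 12 members were past 1.5-fold higher and 9 lower there than in other gated barcodes, where 18% of all genes were higher and 40.8% lower. Car9, a carbonic anhydrase switched on by HIF, was at 6.202 CPM in macrophages against 0.3879 elsewhere, and at 5.185 CPM in KO. Slc2a3, a high-affinity glucose transporter, was at 14.7 against 3.273 CPM, and Hk2, which phosphorylates glucose, at 65.46 against 26.75. Aldoa reached 770.6 CPM, Gpi1 296.3 CPM and Pgk1 479.1 CPM, the highest of all WT classes for each of the 3. Epas1 (0.4594 CPM), P4ha2 (7.58 CPM) and Adm (0.6891 CPM) were lowest relative to other barcodes. Genes of dissociation stress were also high in this class, with 8 of 10 past 1.5-fold higher and a median log2 ratio of 2.21; their part in these values was not tested.

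Endothelium stood out in the transcripts of a HIF subunit and of a glucose transporter. In WT, 14 members were past 1.5-fold higher and 5 lower, where 15.9% of all genes were higher and 25.7% lower. Epas1, the HIF-2 alpha subunit, was at 49.11 CPM in WT and 61.03 in KO endothelium, and sympathetic neurons came next at 18.98 and 24.51 CPM. No other class exceeded 3.966 CPM of Epas1. The share of Epas1 among Hif1a, Epas1 and Hif3a UMIs was 28.1% in WT and 34.4% in KO endothelium and 11.9% and 18.1% in neurons, and 0.91% and 0.595% in mesenchyme. Slc2a1, the main basal glucose transporter, was highest in endothelium at 93.37 and 111.2 CPM, and coelomic barcodes came next at 45.94 CPM in WT. Egln3 (10.14 against 2.181 CPM) and Adm, a vasoactive peptide (8.53 against 2.44), were also higher there, while Ldhb (91.3 against 297.6), Pfkm (5.994 against 15.59) and Hk2 (14.06 against 28.56) were lower. Of the stress genes, 5 of 10 were higher, with a median of 0.91. Within endothelium, the 51 WT barcodes with UMIs of Pecam1 and Kit, the mark of intra-aortic clusters, held 13.63 CPM of Egln3 against 5.743 in the rest and 61.52 against 129 CPM of Ldhb. In KO the same 2 contrasts were 19.74 against 8.384 and 33.02 against 138.6 CPM. Adm was at 14.45 CPM in the WT cluster barcodes and 1.044 in the rest of WT endothelium, on 35 and 2 UMIs. The higher Adm of WT endothelium thus lay in the barcodes with Pecam1 and Kit UMIs, and the rest was below the 2.44 CPM of other barcodes. Those barcodes also held 17.75 CPM of Cspg4, a stromal marker gene of the study, against 4.699 in the rest. Pdgfrb was at 32.62 against 33.41 CPM, and the part of possible doublets was not tested. In KO, Adm was at 9.192 against 5.918 CPM. Asking for a Kit UMI also took deep barcodes, with a median of 49046 UMIs against 15207.5 in the rest of WT endothelium and 52393 against 18081 in KO, and the part of depth in these contrasts was not tested.

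Family members divided the classes between them. Ldhb, the subunit of lactate dehydrogenase associated with lactate use, made up 58.8% of Ldha and Ldhb UMIs in WT coelomic barcodes and 58.5% in Schwann precursors, and 67.1% and 59% in KO. It made up 11% of them in WT macrophages and 14.9% in WT endothelium, and 11.7% and 13.4% in KO. Hk1 made up 62.8% of hexokinase UMIs in WT and 78.4% in KO endothelium, 81.1% and 86.7% in erythroid barcodes, and 9.81% and 19.3% in macrophages. Pfkl was the main phosphofructokinase everywhere in both libraries, with 56.5% to 87.9% of the family. Pfkm, the muscle isoform, was 24.6% in WT skeletal muscle and 6.51% in macrophages. Aldoa held 97.9% to 100% of aldolase UMIs.

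**Figure D2:**
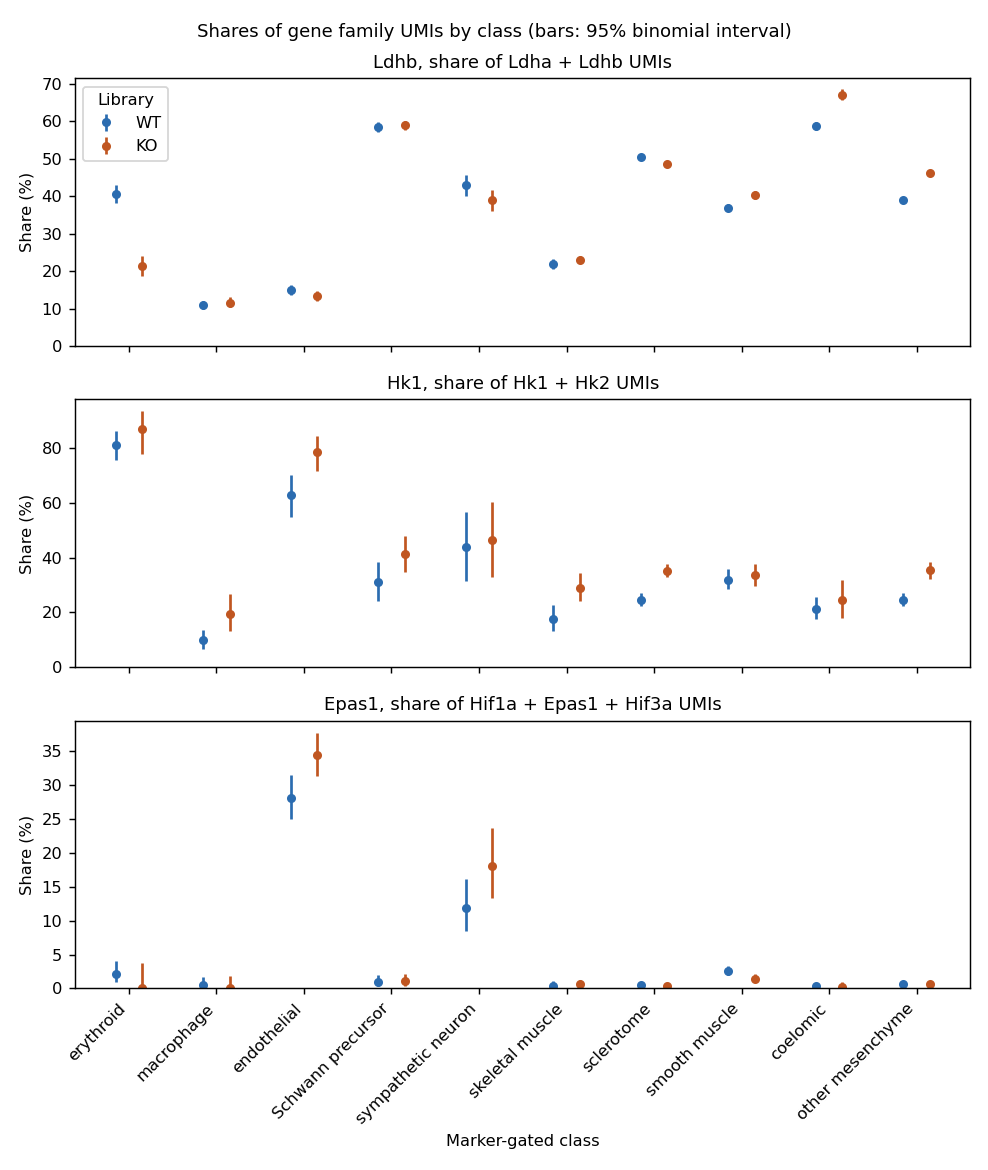
Shares (%) of Ldhb in lactate dehydrogenase, Hk1 in hexokinase and Epas1 in HIF alpha UMIs by class for WT (blue) and KO (orange), bars giving exact binomial 95% intervals. Ldhb lies above 50% in coelomic and Schwann classes of both libraries, and Epas1 above 10% in the endothelial and neuron classes.

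Among the remaining classes, the members furthest from other WT barcodes differed by tissue. Skeletal muscle held Egln3 at 4.616 against 2.355 CPM, on 25 UMIs, Aldoa at 661.1 against 346.1 and Pgk1 at 413.1 against 237.1. Coelomic barcodes held Aldoc at 6.199 against 1.26, Adm at 7.528 against 2.276 and Slc16a3, a lactate exporter, at 50.81 against 18.08. Their P4ha2, a collagen prolyl hydroxylase, was at 87.12 CPM, the highest of all classes in WT. Sympathetic neurons held, beside Epas1, Slc2a3 at 10.85 against 3.556 and Adm at 7.594 against 2.574 CPM. Sclerotome held Pfkp at 8.722 against 5.114, Ldhb at 417.1 against 244.8 and Ddit4, a stress-induced inhibitor of mTOR signaling, at 29.89 against 19.01. Schwann precursors held Ldhb at 518.7 against 280.8 and Ddit4 at 32.82 against 21.43. Smooth muscle held Adm at 5.288 against 2.252 and Hif3a at 9.315 against 6.163 CPM. In the other direction, Epas1 was the member furthest below other WT barcodes in skeletal muscle, coelomic, sclerotome, other mesenchyme and Schwann classes, at 0.3693 to 1.328 CPM. Other lower members of these classes are not all named, such as Slc2a1 in Schwann precursors, at 18.78 CPM. Of the 38 members, 21 had the same highest class in WT and KO among the 10 classes compared, and of 17 whose highest class stood clear of the next by its interval in WT, 13 had the same one in KO. The same shares over all genes were not counted, so these counts are not read as a trait of the members. In the stromal gates of the study, made with Pdgfrb and Cspg4, the WT cells with both genes (DP) held 4458 CPM of the enzymes, those with Pdgfrb alone 5172, those with Cspg4 alone 5546 and those with neither 5613. Gated by the same 2 genes, KO barcodes held 4228, 5054, 5583 and 4951 CPM. Pdgfrb is the gene targeted in KO, so these gates do not hold the same cells in the 2 libraries. Barcodes with both genes numbered 363 in WT and 132 in KO, those with Pdgfrb alone 1913 and 528. Those with neither numbered 2490 and 4067. The order of the gates is therefore not compared between libraries. These gates also sort by depth, with WT medians of 22848, 16798, 14118 and 11859.5 UMIs, and the part of depth was not tested.

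Between libraries, the log2 ratio of the enzyme sum lay between -0.15 (other mesenchyme) and 0.18 (Schwann precursors) in 9 of the 10 classes, and was 0.32 in erythroid barcodes. Without the 5 barcodes with most enzyme UMIs in each library, the Schwann ratio was 0.0269 and the erythroid one -0.13 (1013 CPM in WT and 926.4 in KO). Those 5 held 38.55% of the enzyme UMIs of the 225 KO erythroid barcodes and 11.8% of those of the 744 in WT. They are also a larger part of the KO erythroid barcodes than of the WT ones. In mesenchyme, the 4 mesenchymal classes together, the log2 ratio of KO over WT was -0.0692 (-0.075 to -0.0634), and -0.0223 without Eno1. In endothelium it was -0.0777 (-0.105 to -0.0504), and without Eno1 it was -0.0355. Sensitivity of this value to the choice of cells is given with the alternatives. The median log2 ratio of the 38 members in mesenchyme was 0.06, and 0.02 over all 16208 genes. Of the members, 1 was past 1.5-fold higher (Egln3) and 3 lower (Eno1, Epas1 and P4ha2), where 6.92% of all genes were higher and 7.61% lower. Genes of respiration, measured for comparison, had 0 of 16 past 1.5-fold in either direction, and other hypoxia response genes 0 of 29.

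**Figure D3:**
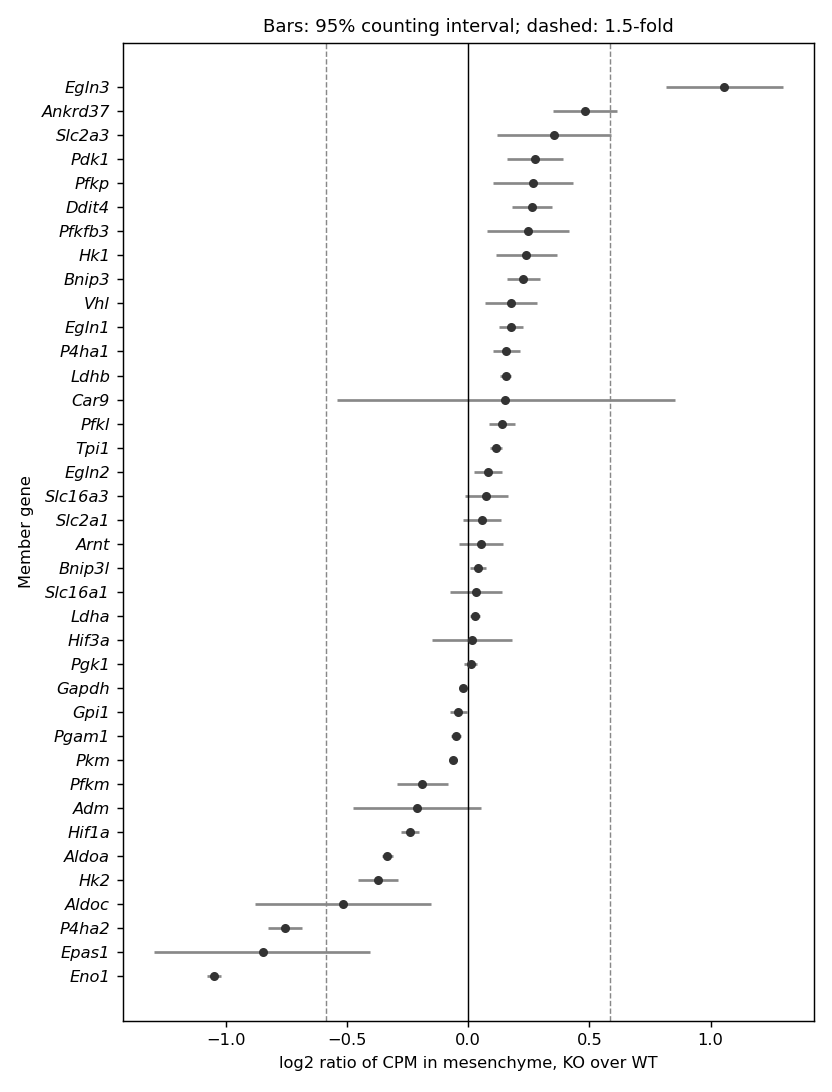
Log2 ratio of CPM of the 38 members in mesenchyme, KO over WT, sorted, with 95% counting intervals and dashed lines at 1.5-fold. Eno1, Epas1 and P4ha2 lie to the left of the lines and Egln3 to the right.

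Eno1, enolase 1, converts 2-phosphoglycerate to phosphoenolpyruvate. It was lower in KO in all 10 classes compared, past 1.5-fold in 9. In mesenchyme it was at 330.9 CPM in WT and 160.1 in KO, a log2 ratio of -1.05 (-1.08 to -1.02). It went from 336.2 to 164.2 CPM in sclerotome, from 338.2 to 158 in other mesenchyme, from 278.1 to 145.5 in smooth muscle and from 381.9 to 182.2 in coelomic barcodes. Skeletal muscle went from 456.5 to 228.9, macrophages from 337 to 151, endothelium from 249 to 108.8 and sympathetic neurons from 266.3 to 124.3 CPM. Schwann precursors (261.6 to 161.1 CPM) and erythroid barcodes (58.95 to 42.52) moved less, and the difference of the log2 ratios between sclerotome and Schwann precursors was -0.33 (-0.46 to -0.21). Every class had more Eno1 in WT. The share of mesenchymal barcodes with an Eno1 UMI was 94.01% in WT and 80.68% in KO. Of the 9842 genes with 1000 or more UMIs in mesenchyme, 79 had a ratio as low or lower (0.803%).

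The counts of Eno1 carry an uncertainty of sequence. Of the 31-base stretches in the last 500 bases of its longest transcript, 84.3% were also found in Eno1b, a retrocopy of Eno1, and Cell Ranger does not count reads that match 2 genes equally well. Eno1b lies on chromosome 18, as does Pdgfrb, the gene targeted in KO, while Eno1 lies on chromosome 4. Eno1b itself was at 2.005 CPM in WT and 1.082 in KO mesenchyme, and the sum of both genes had a log2 ratio of -1.05 (-1.08 to -1.02). Free RNA held 287.9 CPM of Eno1 in WT and 193.8 in KO. Gapdh shares 94.9% of such stretches with other genes, Ldhb 35.5% and Aldoa 23.2%, and 27 of the 38 members share none. Whether those other genes were in the reference used for counting was not checked, so these levels may carry a like uncertainty. Transcript amount, read assignment and sequence carried along with the targeted locus cannot be told apart here.

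P4ha2, a subunit of the enzyme that hydroxylates collagen, was below WT in 8 of 10 classes and past 1.5-fold lower in 5, but above WT in sclerotome and sympathetic neurons. It was at 35.74 CPM in WT and 6.646 in KO endothelium (log2 ratio -2.43, -3.01 to -1.88), at 87.12 and 30.6 in coelomic barcodes (-1.51, -1.79 to -1.24), at 51.2 and 23.49 in smooth muscle (-1.12) and at 52.03 and 24.95 in other mesenchyme (-1.06). The fifth, the erythroid class (4.534 and 2.808 CPM), rested on 63 and 14 UMIs, and its interval (-1.64 to 0.16) held 0. Schwann precursors were at 24.67 and 17.12 CPM (-0.53). Sclerotome was at 29.87 and 31.07 CPM and neurons were at 18.44 and 22.8, and both intervals held 0. The log2 ratio in endothelium was 2.48 below that in sclerotome (-3.04 to -1.93), and that in coelomic barcodes 1.57 below (-1.86 to -1.28). In endothelium the WT level rested on 31 of 127 barcodes, 5 of which held 61.29% of the UMIs, and 17 of 109 in KO. Without the 5 barcodes with most P4ha2 UMIs in each library the endothelial log2 ratio was -2.35. The endothelial class held 32.97 CPM of Pdgfrb in WT and 2.215 in KO, where WT mesenchyme held 53.72. The paper reports no Pdgfrb in its endothelial cluster and calls rare positive hemogenic and cluster cells likely doublets. The part of Pdgfrb barcodes in the endothelial P4ha2 ratio was not tested. Without barcodes with a Pdgfrb UMI in both libraries the endothelial log2 ratio was -0.08 and the mesenchymal one -0.34. This left 2731 of 5007 WT and 4702 of 5362 KO mesenchymal barcodes, and 96 WT and 102 KO endothelial ones. In WT mesenchyme P4ha2 was at 60.65 CPM with Pdgfrb and Cspg4 and 53.63 with Pdgfrb alone. With Cspg4 alone it was at 38.26 CPM, and with neither at 35.61. The removal thus takes more WT than KO barcodes, and the part of this imbalance was not tested.

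Some HIF regulators shared a direction across the classes. Hif1a was lower in KO in 10 of 10 classes, with log2 ratios of -0.56 to -0.14, none past 1.5-fold, and Egln1 was higher in 10 of 10, at 0.08 to 0.40. How often any gene keeps 1 direction over the classes was not counted. Without the 5 barcodes with most UMIs of the gene in each library, Hif1a stayed below WT in every class. Egln1 then went to -0.35 in erythroid barcodes and stayed above WT in the other classes. Egln3, an HIF target and a hydroxylase of HIF, was above WT in all 8 classes with 20 UMIs and past 1.5-fold in 5. In smooth muscle it went from 1.382 to 9.931 CPM (log2 ratio 2.85, 2.21 to 3.55), in 3.27% and 17.07% of barcodes. In Schwann precursors it went from 1.328 to 6.683 CPM, on few UMIs in WT. In mesenchyme it was at 2.276 and 4.729 CPM. Epas1 in smooth muscle was at 3.966 in WT and 1.745 CPM in KO. Hk2 was below WT in 10 of 10 classes and past 1.5-fold in macrophages (65.46 to 39.21), endothelium (14.06 to 7.653) and skeletal muscle (39.52 to 24.78). Without its top 5 barcodes, the Hk2 log2 ratio was 0.06 in Schwann precursors and 0.73 in sympathetic neurons. It stayed below WT in the other classes.

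**Figure D4:**
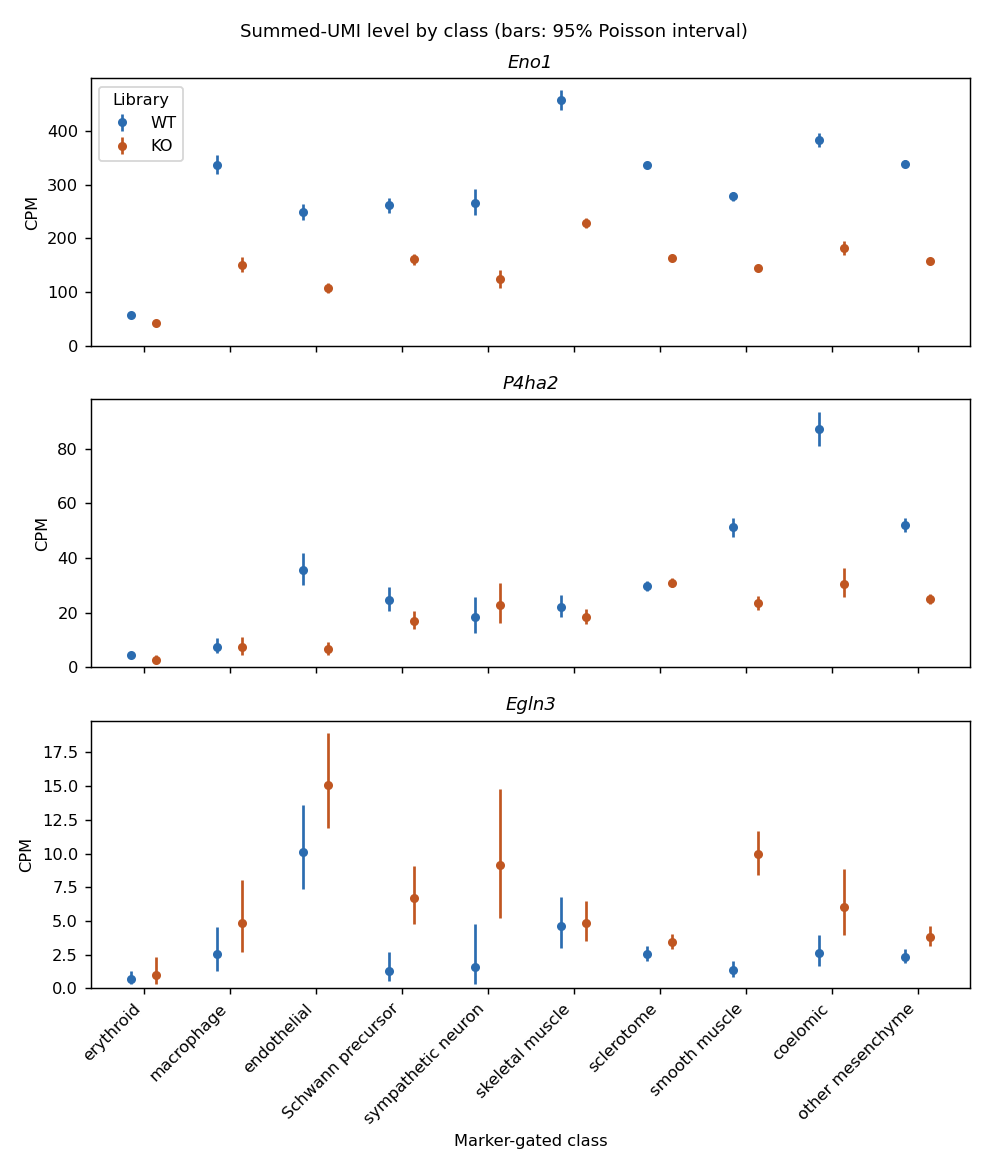
CPM of Eno1, P4ha2 and Egln3 by class in WT (blue) and KO (orange), bars giving 95% Poisson intervals. Eno1 is lower in KO in every class, P4ha2 is at about 30 CPM in sclerotome of both libraries, and Egln3 in smooth muscle is at 1.382 and 9.931 CPM.

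Counts of members past 1.5-fold differed by class and are read against all genes. Sclerotome had 5 of 38 members higher (7.74% of all genes) and 1 lower (5.16%). The 5 were Slc16a3 (14.68 to 25.53 CPM), Pdk1, which restrains pyruvate entry into mitochondria (9.955 to 16.47), Ankrd37 (9.485 to 15.82), Pfkfb3 (4.17 to 6.561) and Slc2a3 (1.968 to 3.124). Stress genes were also past 1.5-fold higher there, 5 of 10, with a median log2 ratio of 0.59, and their part was not tested. Coelomic barcodes had 5 of 36 members lower (8.91%) and 1 higher (6.54%), with P4ha2, Bnip3 (32.77 to 20.86), Ddit4 (19.59 to 12.98) and Adm (7.528 to 2.318) below WT beside Eno1, and Egln3 higher (2.657 to 6.026). Smooth muscle had 2 of 38 higher (5.53%) and 5 lower (7.15%), with Pfkp (7.031 to 4.429) below WT beside Eno1, Epas1, P4ha2 and Aldoc. Other mesenchyme had 2 higher (6.44%) and 3 lower (6.45%), with Aldoc (1.291 to 0.6694) below WT and Adm going from 1.322 to 2.643 CPM.

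Endothelium had 1 of 36 members higher (5.07%), Ankrd37 from 13.37 to 24.97 CPM, and 3 lower (9.68%). Macrophages had 2 of 35 higher (5.52%) and 4 lower (8.82%), among them Hif3a (5.513 to 1.62) and Slc16a1 (21.82 to 13.29), and Ankrd37 higher (8.728 to 14.58), with the granulocyte genes noted above in KO. The Hif3a counts were low, and no ratio was left without the 5 barcodes with most Hif3a UMIs in each library. Skeletal muscle had 0 of 34 higher (5.99%) and 2 lower (8.18%), and Schwann precursors 3 of 35 higher (6.81%) and 2 lower (6.47%), with Pfkfb3 from 4.174 to 7.987 and Slc16a3 from 13.09 to 19.72. Sympathetic neurons had 2 of 34 higher (8.1%) and 1 lower (11%), with Pfkp from 7.051 to 23.94 and Adm from 7.594 to 18.24 CPM. In KO neurons 71.43% of the Pfkp UMIs and 87.5% of the Adm UMIs lay in 5 barcodes. Without the 5 barcodes with most UMIs of the gene in each library, the log2 ratio in neurons was 1.67 for Pfkp and 0.40 for Adm.

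Erythroid barcodes had 6 of 32 members higher (8.54%) and 3 lower (14.7%). In the KO library this class held 8.625 CPM of Xist, against at most 0.163 in the other KO classes. The globin gene Hbb-bs was among its 10 leading genes in KO and not in WT. Whether the class holds the same kinds of red cells in both libraries was not tested. Ldha went from 75.5 to 144.2 CPM, Pkm from 87.23 to 134.2, Tpi1 from 54.99 to 83.44, Slc16a3 from 4.103 to 13.44 and Pdk1 from 2.375 to 6.619. Of the KO UMIs of Ldha, 68.29% lay in 5 of 225 barcodes. Without the 5 barcodes with most UMIs of a gene in each library the log2 ratios were -0.20 for Ldha, -0.06 for Pkm and -0.23 for Tpi1. They went from 1.71 to 0.69 for Slc16a3 and from 1.48 to 0.69 for Pdk1, both still past 1.5-fold. None of 15 enzymes then stayed above WT, where 11 had been. This removal takes a larger part of the 225 KO than of the 744 WT barcodes. It lowered the log2 ratio of every erythroid member with 20 UMIs, and the part of this imbalance was not tested. Slc2a1 was at 28.86 CPM in WT and 10.03 in KO (log2 ratio -1.53, -1.98 to -1.10), with a UMI in 31.72% and 14.67% of barcodes, and Arnt was at 7.198 and 4.212 CPM. P4ha2, described above, was the third lower member. Without the top 5 barcodes, a removal with the same imbalance, the Slc2a1 log2 ratio was -1.92.

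Other members stayed nearer to WT in most classes. Arnt, the HIF beta subunit, had log2 ratios of -0.77 to 0.21 over the 10 classes and was past 1.5-fold in the erythroid class alone, while Vhl ran from -0.57 to 0.46 and Egln2 from -0.24 to 0.22. Of the glycolytic enzymes, Gapdh ran from -0.06 to 0.27, Pgk1 from -0.23 to 0.33, Pgam1 from -0.20 to 0.28, Gpi1 from -0.14 to 0.41, Pfkl from -0.41 to 0.25, Ldhb from -0.40 to 0.35 and Hk1 from -0.07 to 0.54. None of these enzymes passed 1.5-fold in any class. Bnip3l stayed between -0.04 and 0.17, the narrowest range of the HIF targets. P4ha1, the other collagen hydroxylase subunit, ran from -0.505 to 0.535, with coelomic barcodes at 80.59 CPM in WT against 56.79 in KO and sclerotome at 53.8 against 77.95. Aldoa was below WT in 8 of 10 classes, between -0.49 and 0.29. Car9 reached 20 UMIs in 4 of the 10 classes, and Aldoc and Epas1 in 5 each.

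Genes outside the 38, taken from lists of the same pathways, gave the following. Of 30 other glycolysis genes, 22 had 20 UMIs in mesenchyme, and 5 of these were past 1.5-fold lower (7.61% of all genes) and 0 higher. These were the retrocopy Eno1b described above, the muscle phosphoglycerate mutase Pgam2 (2.742 to 1.677 CPM), the neuronal enolase Eno2 (1.572 to 1.017), Ldhd (0.1843 to 0.06493) and Pdk4 (0.2276 to 0.119). The last 2 rested on 17 WT and 6 KO UMIs and on 21 and 11, and the interval of the Pdk4 log2 ratio (-2.14 to 0.18) held 0. In endothelium, where 9.68% of all genes were lower, 1 of 13 was lower, the muscle enolase Eno3 (9.683 to 2.215 CPM). Of the other hypoxia response genes, 2 of 27 were lower in endothelium, Tfrc, the transferrin receptor (15.91 to 7.049), and Loxl2, a collagen cross-linking enzyme (62.48 to 40.89). Arnt2 was higher there (2.767 to 5.035), with a log2 ratio of 0.86 whose interval (-0.18 to 1.99) held 0.

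**Figure D5:**
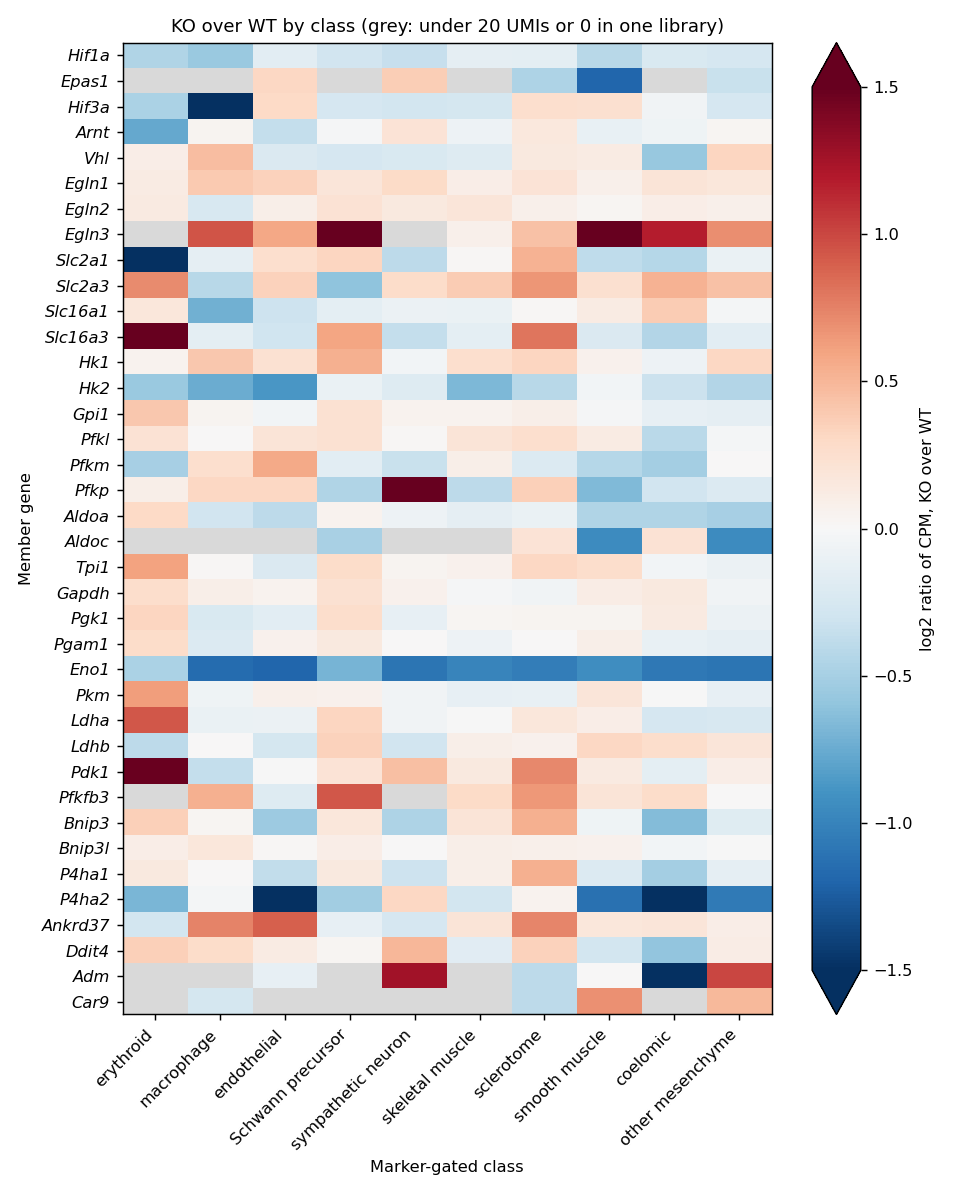
Log2 ratio of CPM, KO over WT, for each member (rows) in the 10 compared classes (columns), with grey under 20 UMIs or 0 in 1 library. The Eno1 row is blue in every class, and the Slc2a1 cell is blue in erythroid barcodes.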

How the data were processed

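The authors aligned 10x Chromium 3′ reads with Cell Ranger 3.1.0 (mm10/GRCm38 reference) and deposited unfiltered UMI counts for 31053 genes per barcode, without normalization. Aldoa is listed with 2 entries, and the entry with 55569 WT UMIs was used. The 38 members and all gene lists were chosen with earlier results of these data known, and the promoter printing and the 5-barcode checks after values were seen.

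Barcodes with at least 2000 UMIs and under 10% mitochondrial UMIs were gated by marker lists, UMIs were summed per class, and levels given as CPM with exact Poisson intervals, shares with exact binomial intervals and ratios with exact conditional binomial intervals, all at 95%. Intervals and floors cover counting error only. Named were, per class, up to 3 members furthest from other barcodes in each direction and members past 1.5-fold between libraries. In all, 16 alternatives were listed at the outset and 3 added later. The ratio, its interval and the thinning of barcodes to 2000 UMIs were tested on simulated data. Positions came from GENCODE M21 and promoters from RefSeq. Python 3.11.15, numpy 2.4.6, scipy 1.17.1, pandas 2.3.3 and matplotlib 3.10.9 were used.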

Additional observations from a re-analysis of the deposited data

Results flagged for a closer look

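Pfkp and Adm passed 1.5-fold in opposite directions in different classes, and these differences between classes were not tested. Pfkp, a phosphofructokinase, had a log2 ratio of KO over WT of 1.76 in sympathetic neurons and -0.67 in smooth muscle. The difference of the 2 ratios was 2.43 (1.43 to 3.43, counting error only), and 5 of the 104 KO neuron barcodes held 71.43% of the Pfkp UMIs. Without the 5 barcodes with most Pfkp UMIs in each library the neuron ratio was 1.67, and over the alternatives it ran from 0.36 to 1.90. Adm had log2 ratios of 1.26 in sympathetic neurons, 1.00 in other mesenchyme and -1.70 in coelomic barcodes, where KO had UMIs in 3 barcodes. With 2 markers for a class and with gates on thinned barcodes, the Adm ratio in neurons was below 0.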

How the results depend on the processing

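No paired analysis was possible because each genotype has 1 library, and no replicate could be left out. The alternatives were run on 32 ratios of named members. The other member ratios named above had at most the 5-barcode check. Of the 576 values of these 32 ratios under the alternatives, 452 stayed within the counting interval of the reported value. This count includes 2 alternatives that cannot move a member's ratio. The 2-fold setting changes only the calls, and the minimum of 100 UMIs of a gene only leaves genes out. The counts of members past 1.5-fold in mesenchyme were 3 lower and 1 higher. They became 1 lower at 2-fold, 4 lower with at most 5% mitochondrial UMIs or gates on thinned barcodes, and 2 higher with the mean of per-barcode CPM. The median log2 ratio of the members in mesenchyme stayed between 0.04 and 0.08 under all 18 alternatives run on it. The endothelial enzyme ratio (-0.0777) was -0.176 with at most 5% mitochondrial UMIs, -0.0391 with 2 markers, -0.0423 with thinned counts and -0.0219 without KO barcodes with a Pdgfrb UMI. It had the opposite sign with 4 markers (0.041), gates on thinned barcodes (0.0105) and without barcodes over 3 times the class median (0.0312), so its direction depends on which barcodes are gated. The WT erythroid enzyme ratio (-2.26) was -2.69 with at most 5% mitochondrial UMIs, -2.47 with thinned gates, -2.63 with thinned counts, -2.62 with per-barcode CPM, -2.67 without Pdgfrb barcodes and -2.39 without barcodes over 3 times the class median. It was -1.13 without globin and mitochondrial genes, -1.13 also without Xist and Y-linked genes, and -0.0324 with median of ratios, which centres the ratios on the median of all genes. Free RNA could not be taken off the erythroid class. Among named members, Ldha in erythroid barcodes (0.93) was -0.33 with thinned gates and -0.20 without the top 5 barcodes, Adm in neurons was -0.24 with 2 markers and -0.29 with thinned gates, and Ankrd37 in endothelium was -0.0654 with per-barcode CPM. P4ha2 in endothelium ranged from -6.52 to -0.08, the latter without Pdgfrb barcodes, and Eno1 in mesenchyme from -1.12 to -0.97. The causes of the other shifts were not tested.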
